A study of Bos taurus with 38 samples.

Results

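The comparison described here is the liver transcriptome of Jersey cows on a high concentrate (HC) diet against the same cows on a control (C) diet. It used all 20 Jersey libraries, 1 per diet from each of 10 cows, out of 38 libraries from 19 cows in the series. The other 18 libraries came from 9 Holstein cows. Every animal was a lactating *Bos taurus* dairy cow that ate both diets in a crossover with 2 periods, and a needle biopsy of the liver was taken at the end of each period. The control ration was mostly grass and clover silage, and the HC ration held more barley, soybean meal and rapeseed cake, hence more starch and crude protein and less fibre. Of the Jerseys, 5 were low-RFI and 5 high-RFI. Residual feed intake (RFI) is the intake of a cow beyond what its production predicts, so a low-RFI cow is the efficient one, labelled as high feed efficiency. The parity of the Jerseys was 1 to 3, and 5 cows ate the HC diet first. Each cow was its own control, so parity, RFI group and genotype did not differ between the diets.

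The rumen ferments starch mainly to short-chain fatty acids, among them propionate, and the liver of a cow turns propionate into glucose. Hepatocytes also esterify or oxidise fatty acids, form ketone bodies, make bile acids from cholesterol and dispose of ammonia as urea. Little glucose is absorbed from the gut of a ruminant, and most fatty acid synthesis takes place in the adipose tissue and the udder rather than in the liver.

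Between 18039897 and 24478289 read pairs per Jersey library were counted on genes, with medians of 19502009 on the C and 19975316 on the HC diet. Of the 24616 Ensembl genes, 11905 reached 1 CPM (the count of read pairs after scaling by library size) in at least 10 of the 20 libraries and were tested. The count tables give identifiers without gene names, and a symbol could be paired with 76 of the tested identifiers, all from the 2 gene lists by RFI published with the study. The hepatocyte, ketone, urea and gluconeogenesis genes were therefore not identified here. The liver-typical genes that could be paired were present in every library, with CYP7A1 at 72.0 CPM or more, CYP3A4 at 82.7 CPM or more and NR1H4 at 50.8 CPM or more.

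The libraries of cows 6004 and 6160 may be exchanged with each other, so the counts of calls, the called genes and each named value that moved by over 1.5 times are also given without these cows. Across the 20 libraries, 33 genes had levels in a high and a low class separated by at least 2 on the log2 scale. The C and HC libraries of the same cow were alike in 26 of them for cow 6004 and in 27 for cow 6160. In the other 8 cows they were alike in 28 for cow 6095, in 32 for cow 5739 and in 33 for the rest. The C libraries of cows 6004 and 6160 were alike in 32 of these genes, and their HC libraries in 33. The C library of cow 6004 and the HC library of cow 6160 were alike in 26. The HC library of cow 6004 and the C library of cow 6160 were alike in 27, so neither of these pairings exceeded the labelled ones. An exchange across the diets would also change the diet label of the libraries moved, which was not tested. Over all genes, as deviations from the diet means, the 2 libraries of cow 6160 correlated with r = 0.20 and those of cow 6004 with 0.038, against 0.084 between the C and 0.19 between the HC libraries of these cows. The lowest correlation of all was that of cow 6095, at -0.056, and this cow stayed in the fits without cows 6004 and 6160. In cow 6160 each library was closest to the other of the cow. Whether the libraries of cows 6004 and 6160 are exchanged was therefore not settled. Both are low-RFI cows of opposite diet order. Their labels were used as given.

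Among the genes that passed the test of the diet, more were higher than lower on HC. With the cow as a block, 71 of 11905 genes (0.596%) had a Benjamini-Hochberg adjusted p under 0.05 in edgeR's quasi-likelihood test and are referred to as called genes. Of these, 45 (0.378%) were higher and 26 (0.218%) lower on the HC diet. The log2 fold changes (HC minus C) of the higher genes ran from 0.27 to 1.77 with a median of 0.57, and 6 were above 1. Those of the lower genes ran from -1.28 to -0.36 with a median of -0.64, and 3 were below -1. The median over all genes tested was 0.00066, and 5975 of the 11905 had a value above 0. At an unadjusted p under 0.05 there were 1508 genes (12.7%).

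The levels on the diets overlapped between cows, while the direction was mostly the same within them. No gene separated the diets, with 0 of 11905 genes (0%) without overlap between the 10 C and the 10 HC libraries. Within cows, 31 of the 45 higher and 15 of the 26 lower genes changed in the same direction in all 10 cows, which 134 of all genes tested (1.13%) did. The other higher genes did so in 9 cows, and the lower genes in 9 cows with 1 exception in 8. These counts follow from the test that chose the genes. Summed over the 45 higher genes, the level was 3724 to 5564 CPM on the C diet (median 4115) and 4795 to 8468 CPM on the HC diet (median 6038). Summed over the 26 lower genes, it was 724 to 1394 CPM on the C diet (median 1029) and 545 to 1012 CPM on the HC diet (median 655). The sums overlapped between the diets in both directions.

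**Figure D1:**
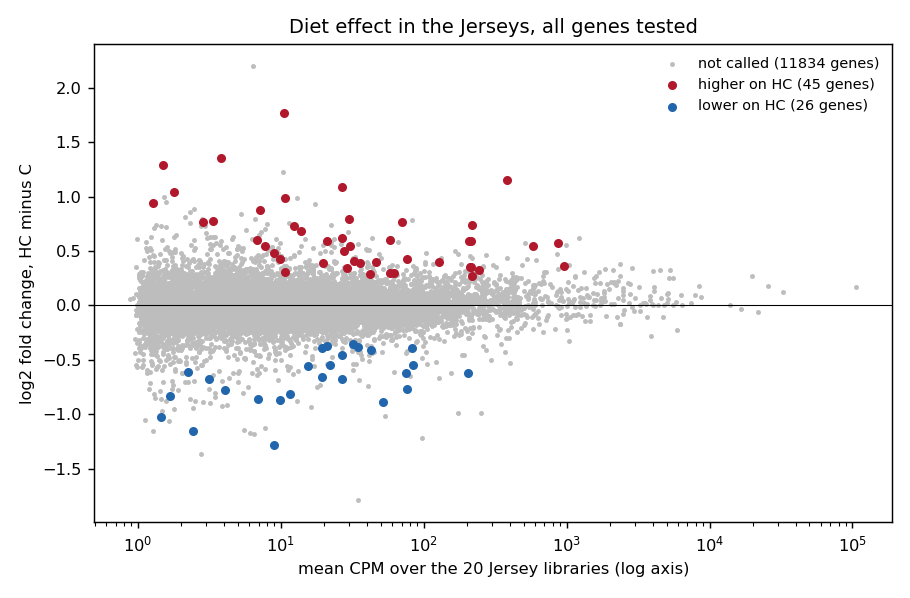
Log2 fold change (HC minus C) of each of the 11905 genes tested against its mean CPM over the 20 Jersey libraries, on a log axis. Red points are the 45 genes called higher, blue points the 26 called lower, grey points the genes not called, and larger fold changes stand at the left where the levels are low.

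The called genes were found at every level of expression, more often among the abundant genes. Of the 2381 genes with the lowest mean CPM 10 (0.42%) were called, and of the 2381 with the highest 26 (1.09%). The median standard error (SE) of the log2 fold change was 0.15 in the former and 0.070 in the latter. Higher genes lay between 1.27 and 959 CPM on average, and lower genes between 1.46 and 205 CPM. As the samples are whole biopsies, a changed share of a cell type and a changed amount of RNA per cell cannot be told apart.

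The clearest rise was in ENSBTAG00000016472, for which no symbol could be paired. On the C diet it had 129 CPM in the lowest cow, a median of 210 and 523 in the highest, and on the HC diet 359, 432 and 878 CPM. The 2 diets overlapped, yet each of the 10 cows was higher on HC, by 0.75 to 1.55 on the log2 scale. The log2 fold change was 1.16 with an SE of 0.084, or 2.23-fold, with an edgeR adjusted p of 2.68e-05. Without cows 6004 and 6160 it was 1.17 (edgeR adjusted p = 0.00087).

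ENSBTAG00000013980, also without a symbol, had the largest log2 fold change of the called genes. It ranged from 1.32 to 8.56 CPM on C (median 5.21) and from 4.75 to 32.7 CPM on HC (median 16.6). All 10 cows rose, cow 6162 the least, by 1.00 on the log2 scale, and cow 6095 the most, by 2.98. The log2 fold change was 1.77 with an SE of 0.15 (edgeR adjusted p = 0.00011), and 1.71 without cows 6004 and 6160 (edgeR adjusted p = 0.0019).

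Of the lower genes, ENSBTAG00000009755 fell by a modest amount in every cow. It had 19.5 to 31.2 CPM on C (median 23.7) and 15.5 to 22.2 CPM on HC (median 17.8). The log2 fold change was -0.38 with an SE of 0.055 (edgeR adjusted p = 0.0083), and the cows ranged from -0.57 to -0.17. ENSBTAG00000005932 was near the limit of detection, with 0.86 to 3.51 CPM on C (median 1.95) and 0.39 to 1.83 CPM on HC (median 0.91). Its log2 fold change was -1.03 with an SE of 0.17 (edgeR adjusted p = 0.020), and cow 6162 hardly changed, by -0.013. Neither gene was called without cows 6004 and 6160, where the edgeR adjusted p was 0.065 and 0.11. For these 4 genes the exact sign-flip permutation test over the 10 cows (two-sided) gave 0.0020, the smallest p it allows. Any gene that changed one way in all 10 cows gets this p. The 4 genes were chosen by their p in the same cows, so it adds no support.

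The 1 called gene with a symbol was RASEF, which encodes a small GTPase of the Rab family with calcium-binding EF-hands. RASEF had 0.34 to 5.31 CPM on C (median 0.81) and 0.32 to 10.6 CPM on HC (median 1.45). Cow 5802 carried the highest level on both diets, and the levels of the diets overlapped across nearly their whole range. RASEF was higher on HC in 9 of 10 cows, and cow 6162 changed by -0.10. The log2 fold change was 1.05 with an SE of 0.20 (edgeR adjusted p = 0.039; exact sign-flip permutation p = 0.0039). Without cows 6004 and 6160 it was 0.89 (edgeR adjusted p = 0.23), and the call was also lost without cow 5691, 5729, 5802, 6004, 6020 or 6160 alone. RASEF is one of the study's Jersey genes by RFI, a list chosen on these libraries.

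**Figure D2:**
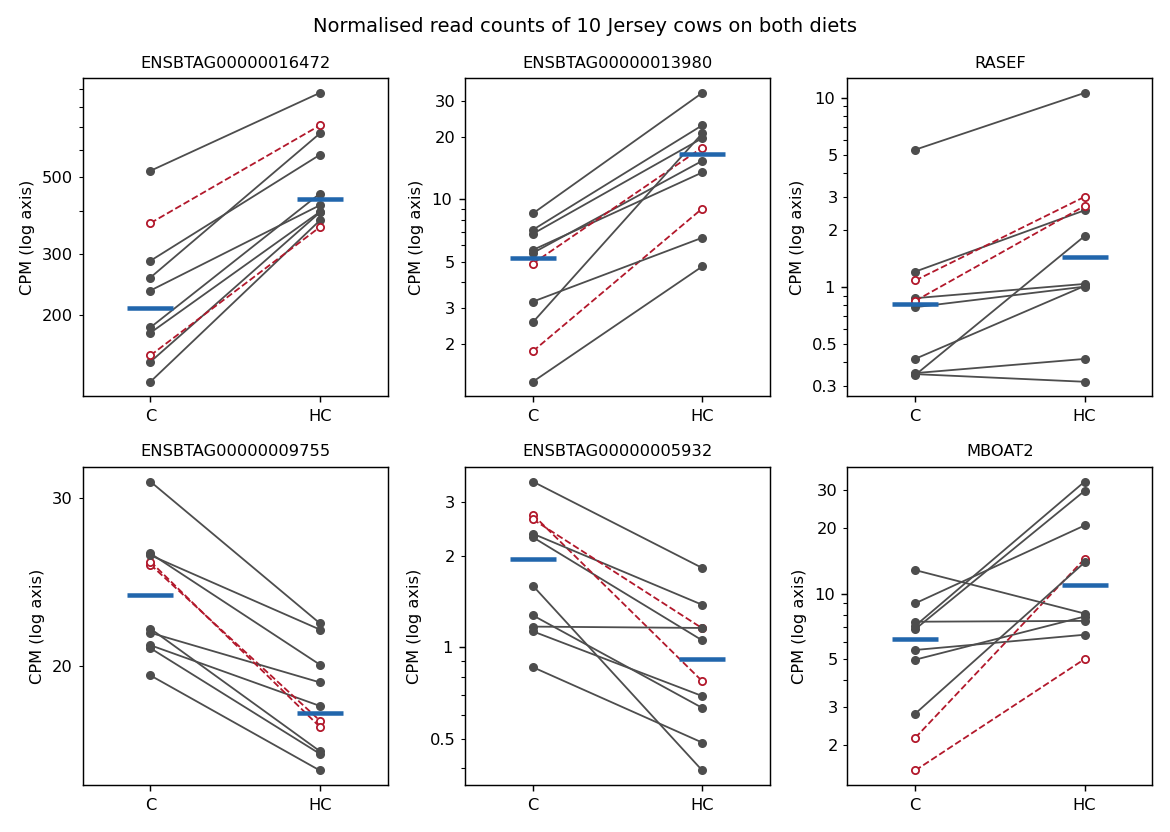
CPM of 6 genes on a log axis on the C and the HC diet, 1 line per Jersey cow and a blue bar at the median of the 10 cows. Dashed red lines with open points are cows 6004 and 6160, and MBOAT2 (bottom right) is the gene of the 6 that was not called.

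RASEF was also the 1 called gene whose sign differed between the periods. The 5 cows that ate the C diet first rose by 0.98 to 2.15 on the log2 scale. The 5 cows that ate HC first changed by -0.10 to 1.39, and 4 of them by no more than 0.32. The change of 1.39 was in cow 6004, whose libraries may be exchanged. Comparing cows within a period, which sets 5 HC cows against 5 other cows on C, the mean difference in log2 CPM was -0.17 in period 1 and 1.94 in period 2. These differences hold the spread between cows, in particular cow 5802. With the period added to the model the log2 fold change was 0.98 (edgeR adjusted p = 0.032).

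The order of the diets did not turn the direction of the other called genes. All 71 had the same sign as in the full fit in the 5 cows with HC first and in the 5 with C first, with median differences in that direction of 0.52 and 0.62 on the log2 scale. Within period 1, 70 of 71 kept that sign, RASEF being the exception, and within period 2 all 71. With the period as a term, 84 genes were called, 68 of them shared with the 71. As the genes were chosen on the same cows, these signs are a description.

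Without cows 6004 and 6160, 23 of 11905 genes were called (0.193%), 21 higher and 2 lower. Of these, 20 were among the 71, and all 71 kept their sign. In the 2 cows that this fit did not use, 18 of the 23 genes changed in the fitted direction in cow 6004 and 18 in cow 6160, with median differences of 0.50 and 0.26 on the log2 scale in that direction. In each of the 8 cows used, all 23 genes did so, but the genes were chosen on these cows. The 2 sets of cows can therefore not be compared by these counts.

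The response was also read in cows that did not choose the genes, leaving out each cow in turn. Without cow 5729 there were 14 calls, and all 14 genes changed in the same direction in cow 5729. Without cow 6020 there were 26, and all 26 did so in that cow. Cow 5802 followed in 18 of 19 genes, cow 6004 in 22 of 25, cow 6160 in 22 of 26 and cow 6162 in 40 of 47. If cows 6004 and 6160 are exchanged, leaving out 1 of them keeps libraries of the same animal in the fit. With both left out, cow 6004 followed in 18 of 23 genes and cow 6160 in 18 of 23. Cow 5691 followed in 40 of 52, cow 5739 in 35 of 47, cow 6095 in 63 of 85 and cow 6090 in 55 of 87. Every cow thus moved with the others in over 50% of the genes. The weakest follower was cow 6090, where the median difference in the fitted direction was 0.099, against 0.85 in cow 5729. These medians are over different lists, of 87 and 14 genes. Over the same 71 called genes, which were chosen with both cows, the medians were 0.29 in cow 6090 and 0.56 in cow 5729.

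**Figure D3:**
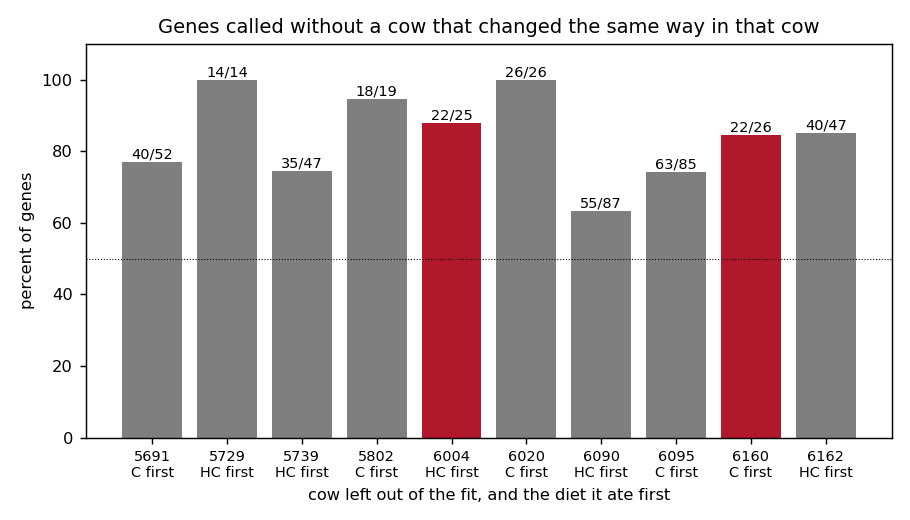
Percent of the genes called without a cow that changed in the same direction in the cow left out, with the number of genes above each bar and the diet eaten first below it. Red bars are cows 6004 and 6160, whose libraries may be exchanged, so that each may remain in the fit that leaves it out. The dotted line stands at 50%, and cow 6090 has the lowest share with 55 of 87 genes.

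The Jersey response was set beside that of the Holsteins, whose cows and libraries are separate. Of the 71 called genes, 70 were also tested in the Holsteins, and all 70 had the same sign there, against 6800 of the 11827 genes tested in both breeds (57.5%). In the Holsteins, 61 of the 70 (87.1%) had an unadjusted p under 0.05, against 1883 of 12025 genes (15.7%). In the 9 Holstein cows one by one, between 47 and 70 of the 70 genes changed in the Jersey direction, with a median of 62. The fit of the Holsteins called 345 of 12025 genes (2.87%), 153 (1.27%) higher and 192 (1.6%) lower. Shared were 26 genes, 15 higher and 11 lower, which is 36.6% of the Jersey and 7.54% of the Holstein calls. Of the 23 genes called without cows 6004 and 6160, all 23 had the same sign and 14 were called in the Holsteins.

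Over these 70 genes the median absolute log2 fold change was 0.59 in the Jerseys and 0.38 in the Holsteins, and 60 genes moved less in the Holsteins. The genes were chosen for their size in the Jerseys, so the comparison of sizes favours the Jerseys. Read the other way, 339 of the Holstein calls were tested in the Jerseys, where 278 had the same sign and 123 (36.3%) an unadjusted p under 0.05, against 12.7% of all genes. For ENSBTAG00000016472 the Holstein log2 fold change was 0.67 (SE 0.17, edgeR adjusted p = 0.052) and 7 of 9 cows were higher. For ENSBTAG00000013980 it was 1.09 (SE 0.20, edgeR adjusted p = 0.013) and 9 of 9 cows were higher. ENSBTAG00000009755 was lower in 9 of 9 Holstein cows, at -0.31 on the log2 scale (edgeR adjusted p = 0.14).

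**Figure D4:**
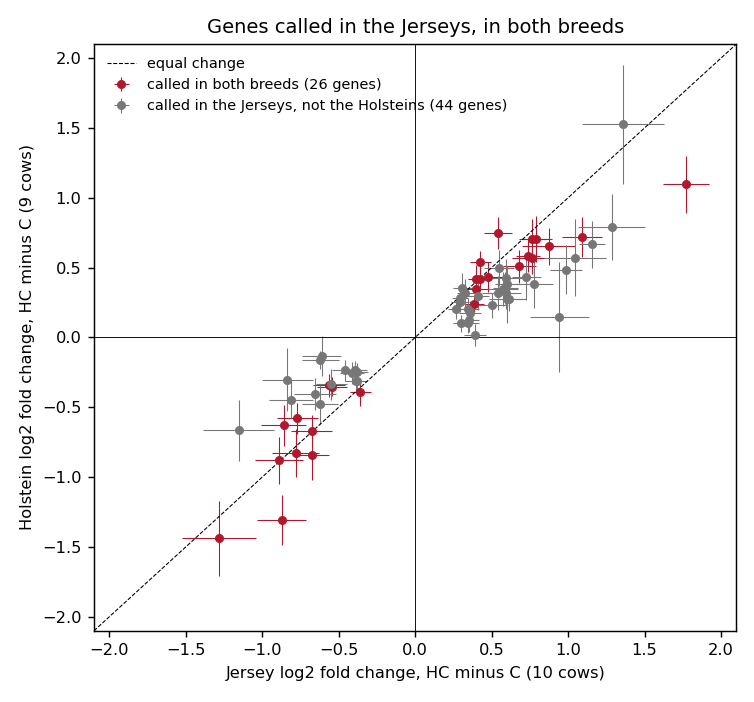
Log2 fold change (HC minus C) in the Holsteins against that in the Jerseys for the 70 called Jersey genes tested in both breeds, with bars of 1 SE. Red points are the 26 genes called in both breeds, all 70 points lie in the lower left or upper right quadrant, and most lie closer to 0 on the Holstein axis than the dashed line of equal change.

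No gene passed the test of a different response in the breeds. The test of the difference itself, on all 38 libraries, called 0 of 11905 genes (0%) in edgeR, with 989 (8.31%) at an unadjusted p under 0.05 and a lowest adjusted p of 0.54. DESeq2 and limma-voom also called 0. Of the 71 genes, 10 had an unadjusted p under 0.05 for the difference, among them ENSBTAG00000016472 and ENSBTAG00000013980. These rose more in the Jerseys by 0.49 (SE 0.20) and 0.67 (SE 0.27) on the log2 scale, each with an edgeR adjusted p of 0.56. The 71 genes were chosen for their change in the same Jersey libraries, which favours a larger value in the Jerseys.

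The response of the low-RFI and the high-RFI Jerseys was compared in the same way. No gene passed the test of the difference in edgeR, 0 of 11905 (0%), with 575 (4.83%) at an unadjusted p under 0.05 and a lowest adjusted p of 0.35. limma-voom called 0 genes and DESeq2 called 1. All 71 called genes had the same sign in both groups. The median difference in the fitted direction was 0.67 on the log2 scale in the low-RFI and 0.47 in the high-RFI cows. It was 0.63 without cows 6004 and 6160 in the other 3 low-RFI cows, again with the same sign in all 71. Cows 6095, 5739, 6004 and 6160, whose C and HC libraries lay furthest apart over all genes, are all low-RFI. Cows 6095 and 5739 remain among those 3, so the RFI groups also differ in this respect. Of the 71 genes, 11 had an unadjusted p under 0.05 for the difference.

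The paired genes were those of the study's lists by RFI, which were chosen by another contrast. The study fitted each breed on its own, so the Jersey list was chosen on these libraries and the Holstein list on those of the Holsteins. Of the 69 tested genes of the Holstein list, 38 were higher and 31 lower on HC, edgeR called 0, and 23 (33.3%) reached 0.05 without adjustment (13 higher, 10 lower), against 12.7% of all genes. DESeq2 called HACL1, MBOAT2, ARHGEF37 and LAMB3 among the genes of that list described below. Of the 19 genes of the Jersey list, 14 were higher and 5 lower, 1 was called and 3 (15.8%) reached 0.05 without adjustment. With 0.596% of all genes called, so few calls are near the background. Leaving out cows 6004 and 6160, edgeR called 0 of either list, and 13 (18.8%) of the Holstein and 3 (15.8%) of the Jersey list reached 0.05 without adjustment, against 9.50% of all genes. The median log2 fold changes were 0.060 and 0.090, and 0.018 and 0.031 without these cows. The genes below were not called in edgeR. They were chosen after their values were seen, except the members of the fixed lists.

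Genes of fatty acid and glycerolipid synthesis did not move one way. ELOVL6, which elongates palmitate to stearate, had 28.3 to 46.2 CPM on C (median 37.9) and 22.8 to 86.5 CPM on HC (median 44.7). It was higher in 8 of 10 Jerseys, at 0.35 on the log2 scale (SE 0.15, edgeR adjusted p = 0.34), and was called in the Holsteins at 0.59 (edgeR adjusted p = 0.0066). ACACA, acetyl-CoA carboxylase, which makes malonyl-CoA in the committed step of fatty acid synthesis, was at 0.25 (SE 0.090) in the Jerseys and -0.12 (SE 0.10) in the Holsteins. DGAT2, the enzyme of the last step of triglyceride synthesis, was at -0.22 (SE 0.10) in the Jerseys and -0.39 (SE 0.10) in the Holsteins. These are 3 of the 24 genes of the fixed list, too few for a count of the pathway.

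MBOAT2, an acyltransferase that remodels phospholipids, had the largest fold change of these genes. It ranged from 1.53 to 12.8 CPM on C (median 6.18) and from 4.99 to 32.8 CPM on HC (median 11). It was higher in 9 of 10 cows, and cow 6090 went the other way by -0.66 on the log2 scale. The log2 fold change was 1.22 with an SE of 0.31 (edgeR adjusted p = 0.11), and 0.89 in the Holsteins (edgeR adjusted p = 0.064). The cows with C first differed by 1.88 on average and those with HC first by 0.58. With the period in the model MBOAT2 was called at 1.21.

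Of the peroxisomal genes, HACL1, a lyase of the alpha-oxidation of branched fatty acids, was higher on HC in 10 of 10 cows. It had 214 to 435 CPM on C (median 306) and 280.4 to 464 CPM on HC (median 368). Its log2 fold change was 0.28 (SE 0.081, edgeR adjusted p = 0.16) against -0.013 (SE 0.065) in the Holsteins. ACOT8, an acyl-CoA thioesterase, was at -0.34 (SE 0.11) and HSD17B4, the bifunctional enzyme of peroxisomal beta-oxidation, at 0.076 (SE 0.086), or 0.029 without cows 6004 and 6160. Apart from these peroxisomal genes, BDH2, a dehydrogenase named for hydroxybutyrate, was at -0.081 (SE 0.066).

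Of the genes of bile acid, steroid and xenobiotic metabolism, CYP7A1 and CYP11A1 varied widely between cows. CYP7A1, the rate-limiting enzyme of bile acid synthesis, had 72.0 to 339 CPM on C (median 159) and 108 to 544 CPM on HC (median 212). Single cows ranged from -1.24 in cow 6004 to 1.96 in cow 6095 on the log2 scale. The log2 fold change was 0.23, with a 95% interval from -0.30 to 0.77, and -0.80 (SE 0.27) in the Holsteins, a difference of 1.03 (SE 0.40, edgeR adjusted p = 0.54). The Jersey value was 0.37 without cows 6004 and 6160, and without cow 6095 it was 0.052. NR1H4, the bile acid receptor FXR, was lower in 9 of 10 cows, at -0.17 (SE 0.065, edgeR adjusted p = 0.30). CYP11A1, the side-chain cleavage enzyme of cholesterol, was at -0.39 (SE 0.22) in the Jerseys and 0.62 (SE 0.18) in the Holsteins. In the Jerseys its value was -0.083 without cows 6004 and 6160, which went from 64.4 to 13.6 CPM and from 33.6 to 15.8 CPM between C and HC. Leaving out 1 cow alone gave -0.47 to -0.19. CYP3A4, a drug-metabolising cytochrome of a family with similar copies, was higher in 9 of 10 cows, at 0.25 (SE 0.075, edgeR adjusted p = 0.18).

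Of the amino acid genes, ALDH18A1, an enzyme of proline synthesis, was lower in 9 of 10 Jerseys at -0.26 (SE 0.098) and was at 0.13 (SE 0.065) in the Holsteins. CTH, which makes cysteine from cystathionine, was at 0.11 (SE 0.088). SOCS2, a feedback inhibitor of growth hormone signalling, was at -0.40 (SE 0.31), with single cows from -2.70 to 1.499. It was -0.13 without cows 6004 and 6160, and -0.59 to -0.19 leaving out 1 cow. INHBE, the beta subunit of the hepatic activin E, was at -0.33 (SE 0.18). FICD, which modifies the chaperone BiP in the endoplasmic reticulum, was at -0.59 (SE 0.21), and at -0.29 without cows 6004 and 6160. It changed by -1.16 on average in the low-RFI and by -0.048 in the high-RFI cows, a difference whose edgeR adjusted p was 0.86. Cows 6004 and 6160 had the lowest values, -1.86 and -1.77, and the other 3 low-RFI cows ranged from -1.14 to -0.39.

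LAMB3, FAM102A and the 3 solute carriers described next had lower values on HC in both breeds. LAMB3, a laminin chain of the basement membrane, had 106 to 234 CPM on C (median 156) and 93.8 to 157 CPM on HC (median 122). It was lower in 9 of 10 Jerseys at -0.33 (SE 0.091, edgeR adjusted p = 0.14), and was called in the Holsteins at -0.44 (edgeR adjusted p = 0.0021). SLC25A34, a mitochondrial carrier, was at -0.61 (SE 0.18) and called in the Holsteins at -0.91. FAM102A was at -0.45 (SE 0.15) and called in the Holsteins at -0.69. SLC20A1, a phosphate transporter, was at -0.37 in both breeds and called in neither. SLC35A5, of the nucleotide sugar transporters, was lower in 10 of 10 Jerseys, at -0.24 (SE 0.073, edgeR adjusted p = 0.18), and at -0.071 in the Holsteins. Without cows 6004 and 6160, which had -0.73 and -0.57, it was -0.14 (edgeR adjusted p = 0.46).

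The other study genes with an unadjusted p under 0.05 were of mixed function. C19orf81 was listed at 0 CPM in at least 1 library of each diet and reached 3.64 CPM, at 0.95 on the log2 scale (SE 0.22, edgeR adjusted p = 0.078), and DESeq2 called it. ARHGEF37 was higher in 9 of 10 cows at 0.46 (SE 0.12, edgeR adjusted p = 0.11). TBC1D8, PCSK6, MFSD1 and OXER1 were between 0.14 and 0.34, and TBC1D8 went from 0.22 to 0.11 without cows 6004 and 6160. CDKL4 was at -0.35 (SE 0.15). MYOM1, a protein of the sarcomere, was at 0.56 (SE 0.25), with 1.21 in the low-RFI and -0.073 in the high-RFI cows. Single cows ranged from 0.55 to 2.31 (cow 6095) in the low-RFI group and from -0.76 to 0.60 in the high-RFI group. The difference between the groups did not pass adjustment in edgeR.

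**Figure D5:**
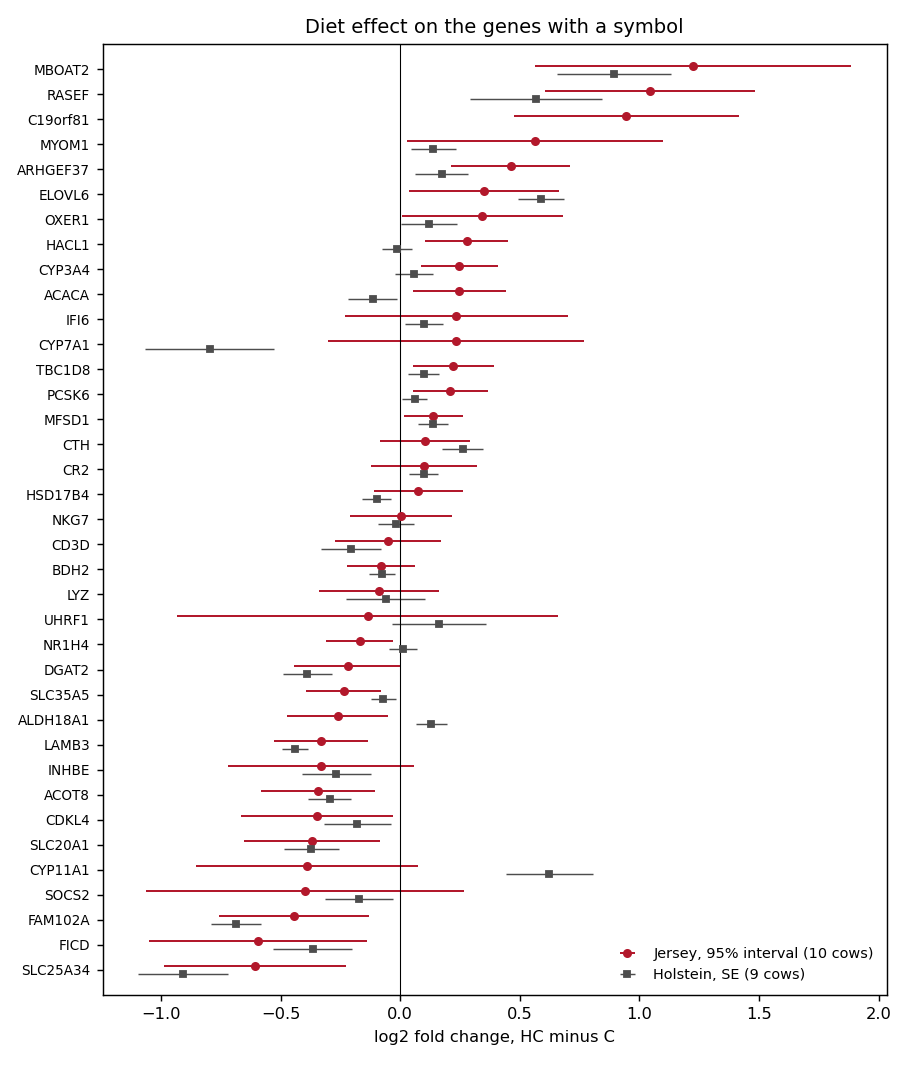
Log2 fold change (HC minus C) of the 37 named genes with a symbol, ordered by the Jersey value. Red circles with 95% intervals are the 10 Jersey cows and grey squares with 1 SE the 9 Holstein cows, and C19orf81 was not tested in the Holsteins. The value of CYP7A1 is 0.23 in the Jerseys and -0.80 in the Holsteins.

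Markers of leukocytes in the biopsies were near 0 in their change. CD3D of T cells had a log2 fold change of -0.051 (SE 0.10), NKG7 of cytotoxic cells 0.0020 (SE 0.099), CR2 of B cells 0.099 (SE 0.10) and LYZ of macrophages -0.089 (SE 0.12). When cows 6004 and 6160 were left out, CD3D was at -0.12, NKG7 at -0.058, CR2 at 0.031 and LYZ at 0.025. LYZ belongs in cattle to a family of similar genes that share reads. The mean change of LYZ was -0.41 in the low-RFI and 0.24 in the high-RFI cows. The unadjusted edgeR p of this difference was 0.0011, but it did not pass adjustment (adjusted p = 0.86). In the 3 low-RFI cows other than 6004 and 6160 the mean was -0.32, with single cows from -0.79 to 0.069. The markers named here are 2 of 12 T and NK cell markers, 1 of 8 B cell markers and 1 of 12 macrophage markers. The other markers could not be paired. IFI6, an interferon-induced gene, was at 0.24 (SE 0.22), and at 0.028 without cow 6095, which rose by 2.09. The part of blood or immune cells in the 71 calls was not tested. UHRF1, a gene of dividing cells, was at -0.14 (SE 0.37), with 0.31 without cows 6004 and 6160.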

How the data were processed

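Liver biopsies of 10 Jersey and 9 Holstein cows, each on both diets, gave 38 libraries from poly-A selected, stranded RNA, sequenced in 1 run. The authors trimmed adapters, aligned the reads with STAR 2.3.0 to UMD3.1 (Ensembl annotation) and deposited raw counts of read pairs per gene from HTSeq-count, whose version and strand setting are not given in the sources used here. Whether the counts separate a gene from an overlapping antisense gene is therefore not known. Read pairs on no gene (23.7% on average in the Jerseys) were left out.

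The counts of the 11905 genes with 1 CPM in at least 10 Jersey libraries (8 in the Holsteins) were fitted with edgeR 4.0.16 in R 4.3.3, using TMM, the cow as fixed block, a two-sided quasi-likelihood F-test, and Benjamini-Hochberg adjustment over all genes at 0.05. The SE is the absolute log2 fold change divided by the square root of F. Differences within cows used log2 CPM with a prior count of 2, and sign-flip permutation tests took all 1024 sign patterns over 10 cows (two-sided). DESeq2 1.42.0 and limma 3.58.1 were alternatives. The paired edgeR fit was tested on simulated counts.

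The pairs come from the cow numbers in the labels. The 2 libraries of a cow, as deviations from the diet means, correlated over all genes with r from -0.056 (cow 6095) to 0.59, and 14 of 20 libraries were closest to the other library of their cow. No pair among 190 held the same counts (chi-square per degree of freedom at least 13.8).

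The members and gene lists were chosen with earlier results of these data known. The rule was to name called genes with a symbol, at most 2 higher and 2 lower identifiers without one, and the first members of each fixed list. Of 646 symbols in 36 fixed lists, 16 could be paired (at most 16.7% of a list, under the 80% set as the minimum), so no list was tested.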

Additional observations from a re-analysis of the deposited data

Results flagged for a closer look

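Single cows stood apart in 2 of the named genes and 1 library measure, out of 49 groups of values looked at with Dixon's test, which chance alone passes in about 1 of 20. UHRF1 rose by 3.38 on the log2 scale in cow 6095, from 0.44 CPM on C to 5.54 on HC, while the other 9 cows ranged from -2.17 to 0.76. NR1H4 changed by -0.64 in cow 5739, against -0.27 to 0.15 in the others. The C library of cow 5691 had 77.0% of its read pairs on genes, against 75.5% to 76.2% in the other C libraries.

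The share of read pairs that fell on more than 1 gene, which enters no comparison above, was higher on the HC diet. Its median was 0.0185% on HC and 0.0158% on C, and it was higher in 8 of 10 cows (exact sign-flip permutation p = 0.025, and 0.20 after adjustment over 8 library measures).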

How the results depend on the processing

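The number of called genes depended on the fit, and the sign of the 71 genes in none of the fits run. Instead of 71 there were 44 calls with no replicate block (35 shared), 258 with DESeq2 (all 71 shared), 23 without cows 6004 and 6160, and, in fits chosen after seeing the data, 26 without these cows with the period added and 136 without them in DESeq2. limma-voom, which took the replicate block (the pairing by cow) as random, gave 64 (43 shared), with DESeq2 size factors 71, with no filter 90 and with the period 84. Leaving out 1 cow gave 14 to 87 calls: 14 without cow 5729, 19 without 5802, 25 without 6004, 26 without 6020, 26 without 6160 and 47 without 5739 or 6162, but 85 without 6095 and 87 without 6090. The cause was not tested. The breed difference stayed at 0 calls under all alternatives. For the difference between RFI groups DESeq2 called 1 gene, the fit with the period 2, and leaving out a cow 0 to 1 (1 without cow 5802).

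RASEF was -0.17 within period 1 and 1.94 within period 2, against a mean within-cow difference of 0.88 in log2 CPM. With no replicate block its adjusted p was 0.27 (edgeR), and over its alternatives the log2 fold change ran from 0.76 to 1.13. For the 41 named genes, 728 of 779 alternative values kept direction and side of the threshold, 32 the direction alone, and 19, of 4 genes, reversed. UHRF1 was 0.0048 in limma-voom, 0.31 without cows 6004 and 6160 (0.38 with the period, 0.26 in DESeq2) and -0.39 to 0.097 leaving out 1 cow. NKG7 was -0.00017 in limma-voom, -0.058 without the 2 cows in all 3 fits and -0.049 to 0.083 leaving out 1 cow. LYZ was 0.025 without them (0.026 with the period, 0.027 in DESeq2), and CD3D -0.11 to 0.0080 leaving out 1 cow. Genes near 1 CPM rest on few read pairs and are the least precise.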

Other observations

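The cows differed in how far their 2 libraries lay apart. The SD over all 11905 genes of the difference in log2 CPM (HC minus C) was 0.66 in cow 6095, 0.54 in cow 5739, 0.53 in cow 6004 and 0.42 in cow 6160, and between 0.29 and 0.37 in the other 6 cows. The deviations of the 2 libraries from the diet means correlated across genes with r = -0.056 in cow 6095, 0.077 in cow 5739 and 0.038 in cow 6004, against 0.33 to 0.59 in those 6 cows and 0.20 in cow 6160. Genes are not independent replicates, so these are descriptions. All of these 4 cows are low-RFI, and the fifth low-RFI cow, 5802, had an SD of 0.36. Without cow 6095 alone there were 85 calls and without cow 5739 alone 47.

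The 10 most abundant genes took 23.97% to 28.8% of the read pairs on genes on C and 24.8% to 28.2% on HC, higher on HC in 8 of 10 cows (exact sign-flip permutation p = 0.20 before and 0.27 after adjustment over 8 library measures).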
